A study of Mus musculus with 12 samples.

Results

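The resting transcriptome of B16F10 cells, a pigmented mouse melanoma line, was read from the 3 libraries of cells with wild-type IRF7 that received the control treatment and no interferon. These are 3 of the 12 libraries of a series of 4 groups, 3 libraries each, in which all cells were B16F10 and carried either wild-type IRF7 or IRF7 C435A, with control treatment or with interferon alpha (IFNα). Wild-type control is described here and compared with wild-type IFNα and mutant control, where mutant means IRF7 C435A, and mutant IFNα enters only where values of all libraries are given. The labels give no dose, time, passage or clone, and do not say how C435A was introduced or whether libraries of 1 group came from separate cultures, so every SD and p-value describes the variation among these libraries alone, and that variation may be technical. IRF7 is a transcription factor that drives interferon genes, and the series title ties its S-nitrosylation to the nitric oxide synthase NOS1.

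Levels are FPKM, fragments counted relative to transcript length and library size, given as mean ± SD over the 3 wild-type control libraries (n = 3) unless values are given per library. A gene is called expressed at a mean of at least 1 FPKM, low above 0 and below 1, and listed at 0 where all 3 libraries have 0. Of 27503 genes in the table, 144 were set aside because they had at least 20 counts in replicate 1 and at least 10 times the FPKM of both other libraries there. The remaining 27359 genes were ranked, and nothing was tested on resting levels.

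Melanoma cells arise from melanocytes, neural crest cells that make melanin inside melanosomes. SOX10 and MITF keep that identity, and MITF binds short E-box motifs before pigment genes. In the innate branch, sensors of foreign nucleic acid switch on type I interferon, which acts through its receptor, JAK kinases and STAT factors on interferon-stimulated response elements (ISREs) in front of interferon-stimulated genes.

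The promoters of 2 interferon-stimulated genes and 2 pigment genes that ranked high at rest are shown because they carry these motifs. Sequences are from RefSeq (GRCm38.p6), 5′ to 3′ on the gene's strand, and each holds the 250 bases before the start. Capitals mark every match on either strand to GAAANNGAAA in Isg15 and Bst2, and to CATGTG, the core of the M-box, in Tyrp1 and Dct. Isg15 lies at chr4:156200819-156201068 on the minus strand, Bst2 at chr8:71537473-71537722 on the minus strand, Tyrp1 at chr4:80833963-80834212 on the plus strand and Dct at chr14:118052247-118052496 on the minus strand.
Isg15: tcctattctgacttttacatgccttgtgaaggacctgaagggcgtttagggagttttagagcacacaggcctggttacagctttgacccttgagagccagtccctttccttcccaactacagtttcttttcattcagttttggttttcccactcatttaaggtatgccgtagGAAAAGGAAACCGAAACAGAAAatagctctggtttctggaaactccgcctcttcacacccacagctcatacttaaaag
Bst2: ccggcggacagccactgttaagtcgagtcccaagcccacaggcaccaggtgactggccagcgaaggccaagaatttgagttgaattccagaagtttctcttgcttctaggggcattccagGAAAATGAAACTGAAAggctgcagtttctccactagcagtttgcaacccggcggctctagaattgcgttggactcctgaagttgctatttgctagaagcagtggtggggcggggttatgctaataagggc
Tyrp1: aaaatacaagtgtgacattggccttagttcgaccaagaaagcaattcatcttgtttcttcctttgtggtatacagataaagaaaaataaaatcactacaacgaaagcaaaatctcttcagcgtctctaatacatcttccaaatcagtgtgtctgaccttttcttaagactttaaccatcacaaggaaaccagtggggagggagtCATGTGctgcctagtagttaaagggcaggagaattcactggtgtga
Dct: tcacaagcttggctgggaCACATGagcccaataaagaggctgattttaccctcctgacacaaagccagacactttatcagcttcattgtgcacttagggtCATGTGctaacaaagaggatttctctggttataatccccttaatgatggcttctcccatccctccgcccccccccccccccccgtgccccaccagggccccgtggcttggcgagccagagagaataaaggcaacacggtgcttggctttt

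In Isg15 the 3 matches overlap and begin 78, 72 and 66 bases before the start, and in Bst2 the 2 overlapping matches begin 130 and 124 bases before it. Tyrp1 has 1 match, 46 bases before the start, and Dct has 2, at 232 and 150 bases. Of 60 interferon-stimulated genes listed, 47 had a promoter entry and 22 of those (46.8%) held GAAANNGAAA, against 936 of 27025 genes (3.46%) in the whole promoter table. Of 20 pigment genes, 14 had an entry and 8 of those (57.1%) held CATGTG, against 3742 of 27025 (13.8%). A gene with several entries counted if any of them matched. A match is a description of letters and not evidence of binding.

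The libraries were deep and of like size, with deposited count totals of 72703468 to 75392539. Multiples of 4 made up 33% of the counts between 1 and 30, although they are 23.3% of the whole numbers in that range, so a count may not stand for a single fragment, which was not tested. Over genes at 10 FPKM or more, log2 ratios of 1 library to another had an SD of 0.27 for replicates 1 and 2, 0.39 for 1 and 3 and 0.29 for 2 and 3, and the median coefficient of variation was 12.7%. Replicate 3 stood apart in mitochondrial transcripts, being lower than both others in all 13 mitochondrially encoded mRNAs, at a median ratio of 0.598 to their mean. Longer genes were higher in it, with a median log2 ratio of -0.10 among the shortest 25% of expressed genes and 0.27 among the longest 25%.

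Replicate 1 held transcripts that the other wild-type control libraries lacked. The strongest was Scgb1a1, a secretoglobin of airway club cells, at 26.2 FPKM in replicate 1 and listed at 0 in replicates 2 and 3, followed by the surfactant gene Sftpc at 8.93, 0 and 0.157 FPKM. Of 14 lung epithelium markers 10 were among the 144 genes, and the summed level of all 14 was 44.8 FPKM in replicate 1, 0.375 in replicate 2 and 0.622 in replicate 3. The same rule found 30 genes in replicate 2 and 37 in replicate 3. The lung marker sum was 51.1 to 75.4 FPKM in 7 of the 9 libraries of the other groups and 0.435 in mutant IFNα 1 and 2, so high and low libraries occurred in more than 1 group. All 144 genes together held 0.0230% of the summed FPKM of replicate 1. The source of these transcripts was not tested.

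Of the 27359 genes, 9603 (35.1%) were expressed, 3826 reached 10 FPKM, 719 reached 100 and 75 reached 1000. Another 13325 were low and 4431 were listed at 0. The number expressed was 9640 without replicate 1 and 9475 without replicate 3. Of 16758 protein-coding genes, 8237 (49.2%) were expressed, and of 1443 lincRNA genes 98 (6.79%). No gene kept was at 0 in all 12 libraries, so these shares are of genes detected in the series, not of all annotated genes. The 10 most abundant genes held 11.8% of the summed FPKM, the top 100 held 40.7% and the top 1000 held 79.0%. Abundance fell with transcript length across genes, from a median of 14.4 FPKM in the shortest 25% of expressed genes to 3.10 in the longest 25%.

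Ftl1, the light chain of the iron store ferritin, was the most abundant gene, at 11541, 13433 and 12775 FPKM in replicates 1 to 3. Rplp1, a stalk protein of the large ribosomal subunit, followed at 10718, 10976 and 8672 FPKM. Both lay above every other gene in all 3 libraries. The ferritin heavy chain Fth1 was far lower, at 634 ± 73.9 FPKM.

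**Figure D1:**
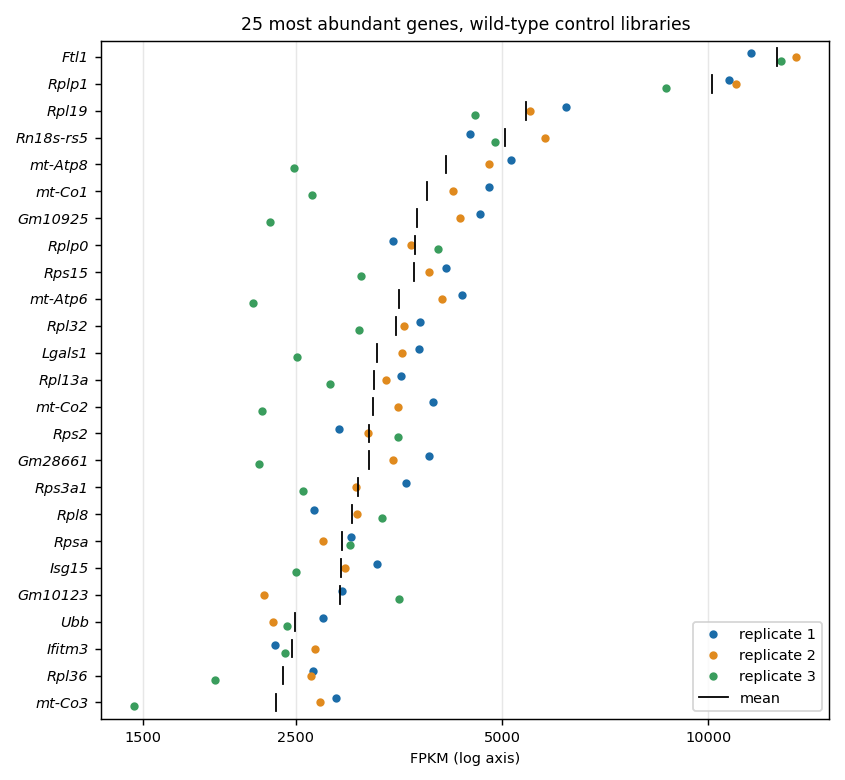
FPKM (log axis) of the 25 most abundant genes in each wild-type control library (coloured points) with the mean (line). Ftl1 and Rplp1 stand to the right of the others, and replicate 3 is the lowest point in the mitochondrial genes.

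Ribosomal protein genes led the list, with 11 of the top 25 and 39 of the top 100, and held 20.6 ± 1.12% of the summed FPKM. Next among them were Rpl19 at 5419 ± 818 FPKM, Rplp0 at 3728 ± 291 and Rps15 at 3721 ± 537, and then Rpl32, Rpl13a, Rps2, Rps3a1, Rpl8, Rpsa and Rpl36, between 3497 and 2399 FPKM. Their processed copies share reads with them, so levels of single members are uncertain. Pseudogenes of all kinds, not only copies of these genes, held 12% of the summed FPKM. In the order of the top 25, 22 of the 24 neighbouring pairs overlapped between libraries, so most ranks are not resolved.

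Mitochondrially encoded genes held 5.59 ± 1.35% of the summed FPKM, with mt-Atp8 (4146 ± 1444) and mt-Co1 (3893 ± 1116), subunits of ATP synthase and cytochrome oxidase, in front, and mt-Atp6, mt-Co2 and mt-Co3 also in the top 25. The nuclear copies Gm10925 and Gm28661 ranked 7 and 16 and cannot be told from their mitochondrial originals. Rn18s-rs5, a ribosomal RNA sequence, was at 5050 ± 656 FPKM despite the poly(A) selection in the labels' protocols. Outside these classes, the top 25 held Lgals1, a secreted galactoside-binding protein, at 3291 ± 686 FPKM, the ubiquitin gene Ubb at 2498 ± 223, Gm10123, annotated as a processed pseudogene, at 2902 ± 647, and 2 interferon-stimulated genes. These were Isg15, a ubiquitin-like modifier, at rank 20 and Ifitm3, which blocks viral entry, at rank 23.

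The pigment programme was expressed almost in full, with 19 of 20 genes at 1 FPKM or more and 10 at 100 or more. The median member was at 91.8 FPKM, the 97.2 percentile of all genes ranked. Mlana, a melanosome antigen, was at 1028, 1043 and 1215 FPKM in replicates 1 to 3, and Pmel, which forms the melanosome's fibrils, at 927, 1061 and 1222. Both were highest in replicate 3. The enzymes of melanin synthesis followed, Tyrp1 at 635, 453 and 598 FPKM and Dct at 398, 343 and 437. Tyr, which starts that synthesis, was much lower at 29.0, 21.2 and 26.1 FPKM, below Tyrp1 and Dct in every library.

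The vesicle proteins Cd63 (821 ± 88.6) and Gpnmb (499 ± 81.5) and the prostaglandin synthase Ptgds (424 ± 35.2) were also high. The transporter Slc24a5 was at 199 ± 22.7 FPKM and the melanocortin receptor Mc1r at 25. Oca2, a melanosomal anion channel, was the 1 pigment gene below threshold, at 0.214 FPKM. Myo5a, the motor of melanosome transport, was at 1.74 FPKM while its adaptor Mlph was at 81.8.

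Among 11 melanocyte regulators kept, 6 were expressed. Sox10 was at 122, 153 and 132 FPKM, whereas Mitf was at 4.8, 4.0 and 5.6. On the mean, Mitf was level with its relatives Tfe3 (4.90 ± 0.821) and Tfeb (4.89 ± 0.465). Each held 32.9% to 33.5% of the summed FPKM of these 3 genes. By library the share of Mitf was 36.4%, 26.9% and 35.5%. Pax3, which acts upstream of Mitf, was at 5.12 ± 0.653 FPKM. The receptor Ednrb was at 0.0637, 0 and 0.0119 FPKM and Irf4, which helps drive Tyr in human melanocytes, at 0.0227. Kit, the receptor for stem cell factor, had 37 counts in replicate 1 and 0 in replicates 2 and 3, and so was among the genes set aside.

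Of 10 Schwann lineage markers 7 were expressed, led by S100b (107 ± 12.5 FPKM), a classic melanoma marker, and Mbp (45.0 ± 7.41), a myelin protein. Among 22 mesenchymal and dedifferentiation markers 9 were expressed, with Vim at 149 ± 28.5 FPKM, Sparc at 87.9 ± 14.4 and Spp1 at 46.1 ± 6.06. Of genes used as markers of dedifferentiated melanoma, Nes (8.60 ± 1.55) and Axl (7.84 ± 2.11) were expressed, while Sox9 (0.665), Ngfr (0.232), Zeb1 (0.0430) and Egfr (0.00154) were low.

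**Figure D2:**
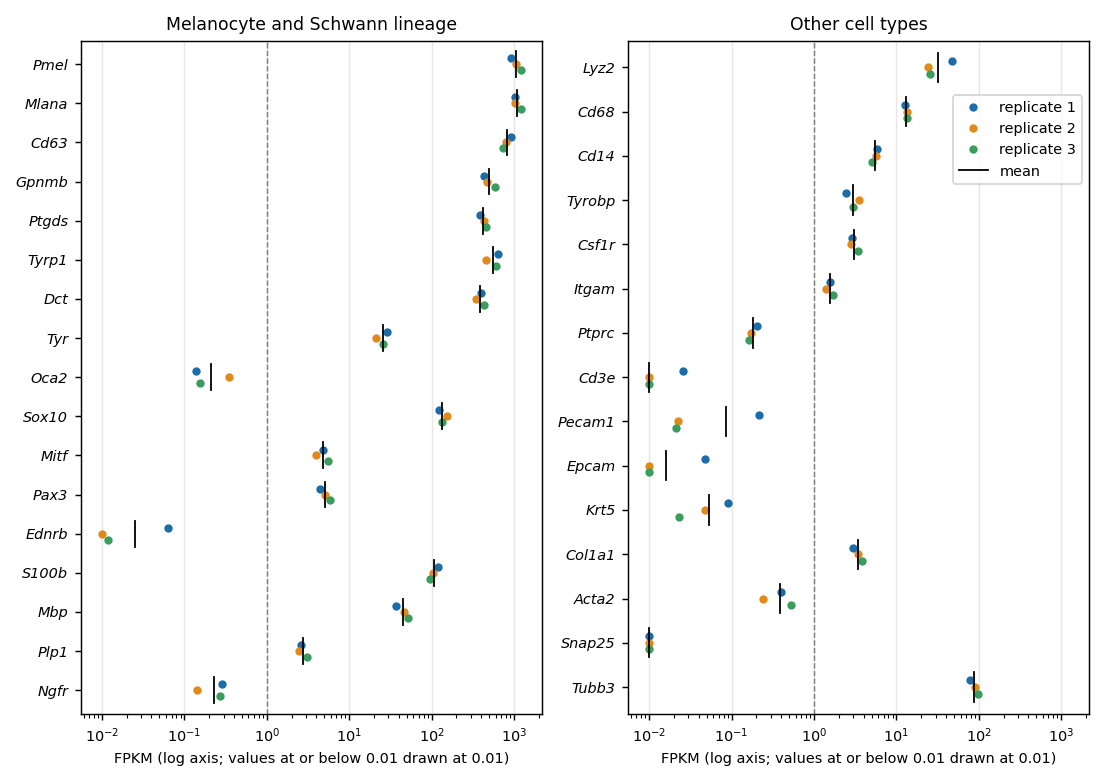
FPKM (log axis) of lineage genes (left) and of markers of other cell types (right) in each wild-type control library, with the mean as a line and 1 FPKM dashed. Pmel and Mlana lie near 1000 FPKM, while Cd3e, Epcam and Snap25 lie at or near the left edge.

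Markers of other cell types were mostly low, but some myeloid transcripts were expressed. Lyz2, the lysozyme of macrophages and neutrophils, was at 46.7, 24.3 and 25.9 FPKM, and the lysosomal glycoprotein Cd68 at 12.9, 13.3 and 13.4. Cd14 (5.49 ± 0.454), Csf1r (3.05 ± 0.358) and Tyrobp (2.99 ± 0.555) were also above threshold. In all, 7 of 21 leukocyte markers kept were expressed. Their summed level was 74.6 FPKM in replicate 1, 53.0 in replicate 2 and 55.1 in replicate 3. The other 9 libraries spanned 48.5 to 89.5 FPKM. Among these, mutant IFNα 1 and 2, with lung marker sums of 0.435 FPKM, were at 63.7 and 48.5. Those with high lung marker sums were at 58.5 to 89.5 FPKM, and the part of lung transcripts in these levels was not tested. The pan-leukocyte marker Ptprc was at 0.180 FPKM, the T cell gene Cd3e at 0.0257, 0 and 0, and the B cell gene Ms4a1 was listed at 0. Fewer cells of a type and less RNA per cell cannot be told apart in bulk samples, and whether these transcripts come from the melanoma cells was not tested.

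General epithelium had 0 of 9 markers expressed and lung epithelium 0 of the 4 not set aside. Endothelium had 2 of 10, Ramp2 (7.46) and Egfl7 (6.16), while Pecam1 was at 0.215, 0.0223 and 0.0211 FPKM, highest in replicate 1, the library with lung markers. Fibroblast and muscle had 2 of 14, Des (7.02) and Col1a1 (3.43), and 5 at a minimum of 0.5 FPKM. Neurons had 1 of 8, the tubulin Tubb3 at 88.3 ± 9.55 FPKM, with Snap25 listed at 0.

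Most receptors and ligands of growth signalling were below 1 FPKM. Of 32 receptor tyrosine kinases kept 9 were expressed, and of 29 growth factors and melanocyte ligands 7. The share expressed was 35.1% over all genes ranked and 49.2% over protein-coding genes. At a minimum of 0.5 FPKM the ligand count was 11. The collagen receptor Ddr1 led at 33 ± 3.29 FPKM, followed by Axl, a receptor for Gas6, at 7.84 ± 2.11. Met, the receptor of hepatocyte growth factor, was at 1.99 FPKM, and Igf1r and Insr at 0.211 and 0.208. Ret, Flt3, Mst1r and Ror1 were listed at 0. Among ligands Vegfb was at 16.1 ± 3.19 FPKM, Csf1, the ligand of Csf1r, at 5.21 ± 0.885 and Pomc, the precursor of melanocortin, at 4.13 ± 0.10.

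In the RAS, ERK and AKT families 1 member gave most of the transcript. Hras gave 85.0 ± 1.59% of the FPKM of the RAS genes, with Nras at 12.5%. Of the ERK kinases Mapk3 gave 91.2 ± 1.46%, and of the AKT kinases Akt1 gave 90.7 ± 0.183%, at 258 ± 28.9 FPKM. Among the RAF kinases Araf was at 10.4 ± 0.343 FPKM, and Braf, often mutated in human melanoma, was at 0.225, 0.163 and 0.252 FPKM, below Araf in every library.

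**Figure D3:**
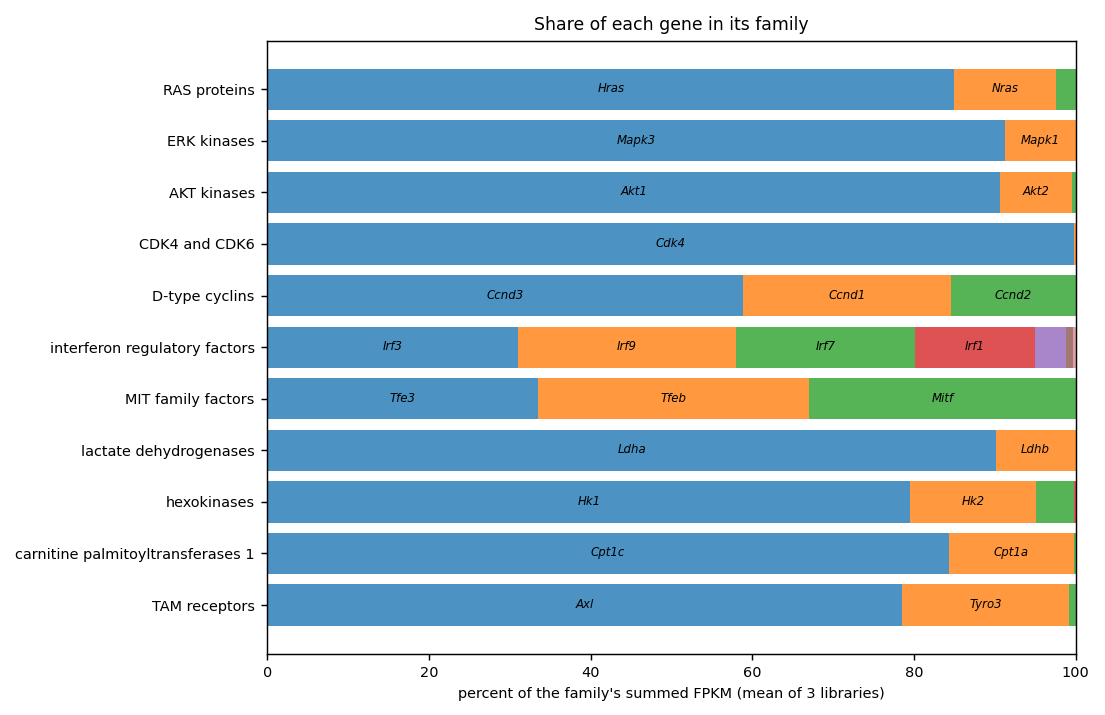
Share (percent) of each gene in the summed FPKM of its family, as the mean of the 3 wild-type control libraries. Hras, Mapk3, Akt1, Cdk4 and Ldha each hold at least 85.0% of their family, and Mitf, Tfe3 and Tfeb hold similar mean shares.

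In the WNT list 7 of 29 genes were expressed, with the effector Ctnnb1 at 67.8 ± 14.1 FPKM and Axin1 at 7.59 ± 2.07, while the nuclear partner Lef1 was at 0.00444. Of 28 TGF-beta and BMP genes 12 were expressed, led by the BMP targets Id3 (155 ± 22.4), Id2 (89.5 ± 16.4) and Id1 (40.1 ± 3.00), with Id4 listed at 0. Of 22 Notch and hedgehog genes 3 were expressed, namely Smo (18.1 ± 1.58), Sufu (2.22 ± 0.423) and Hes1 (1.01 ± 0.227).

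All 24 proliferation genes were expressed, with a median of 23.7 FPKM. Pcna, the sliding clamp of DNA replication, was at 128 ± 24 FPKM, the helicase subunit Mcm5 at 71.1 ± 7.40 and the mitotic kinase Plk1 at 59.5 ± 9.62. Mki67 was the lowest of the list, at 1.04, 1.34 and 1.79 FPKM. Of 32 cell cycle and tumour suppressor genes 18 were expressed.

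Cdkn2a, which encodes the cell cycle inhibitors p16INK4a and p19ARF, had 0 counts in all 3 libraries. Its neighbour Mtap on chromosome 4 had 7409, 7474 and 9307 counts, while Cdkn2b had 16, 0 and 0. Cdkn1a, the p21 inhibitor, was high at 198, 246 and 250 FPKM, and Trp53, its activator, was at 33.9, 41.1 and 43.4. Cdk4 was at 155 ± 11.9 FPKM and gave 99.8% of the FPKM it shared with Cdk6 (0.325). Rb1, the retinoblastoma protein gene, was at 0.279 FPKM.

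Core metabolism was expressed broadly, with all 20 TCA cycle genes, all 21 cholesterol synthesis genes and all 7 pentose phosphate genes at 1 FPKM or more. Glycolysis and lactate genes had 23 of 29 expressed and held 1.5 ± 0.19% of the summed FPKM. Tpi1 led at 1343 ± 114 FPKM, followed by Ldha, which makes lactate, at 1192 ± 43.0 and Pgk1 at 995 ± 174. Ldha gave 90.1 ± 0.805% of the lactate dehydrogenase transcript. Gapdh was at 145 ± 21.7 FPKM, a value made uncertain by its many processed copies. The glucose transporter Slc2a1 was at 7.11 FPKM, and Hk1 gave 79.5% of hexokinase transcript against 15.6% for Hk2.

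In serine synthesis 12 of 13 genes were expressed, with Phgdh, its first enzyme, at 340 ± 27.1 FPKM and Shmt2 at 186 ± 32.1. Fdps led cholesterol synthesis at 173 ± 9.24 FPKM. Fatty acid genes had 19 of 24 expressed, led by the binding protein Fabp5 at 334 ± 30.1 FPKM. Cpt1c gave 84.3% of carnitine palmitoyltransferase 1 transcript and Cpt1a 15.5%. The TCA list was led by the succinate dehydrogenase subunit Sdhb at 873 ± 114 FPKM, well above Sdha, Sdhc and Sdhd at 30.0, 62.7 and 181.

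Antioxidant genes had 28 of 32 expressed, with Gstp1 at 903 ± 69.8 FPKM, Prdx1 at 877 ± 149 and Gpx4, which guards against lipid peroxidation, at 671 ± 66.5. Slc7a11, the cystine importer, was at 0.371 FPKM and Nqo1, a quinone reductase, at 0.748 ± 0.310. In the nitric oxide list the 3 synthases were all low. Nos1, the enzyme of the series title, had 4, 20 and 20 counts (0.00470, 0.0232 and 0.0227 FPKM), Nos2 had 10, 8 and 0, and Nos3 had 212, 221 and 156 (0.675, 0.696 and 0.478 FPKM). Arginine recycling was expressed, with Ass1 at 107 ± 23.6 FPKM and Asl at 42.4 ± 3.05, as was Adh5, which removes nitrosothiols, at 30.1 ± 3.40. Arg1 had 4, 0 and 0 counts.

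**Figure D4:**
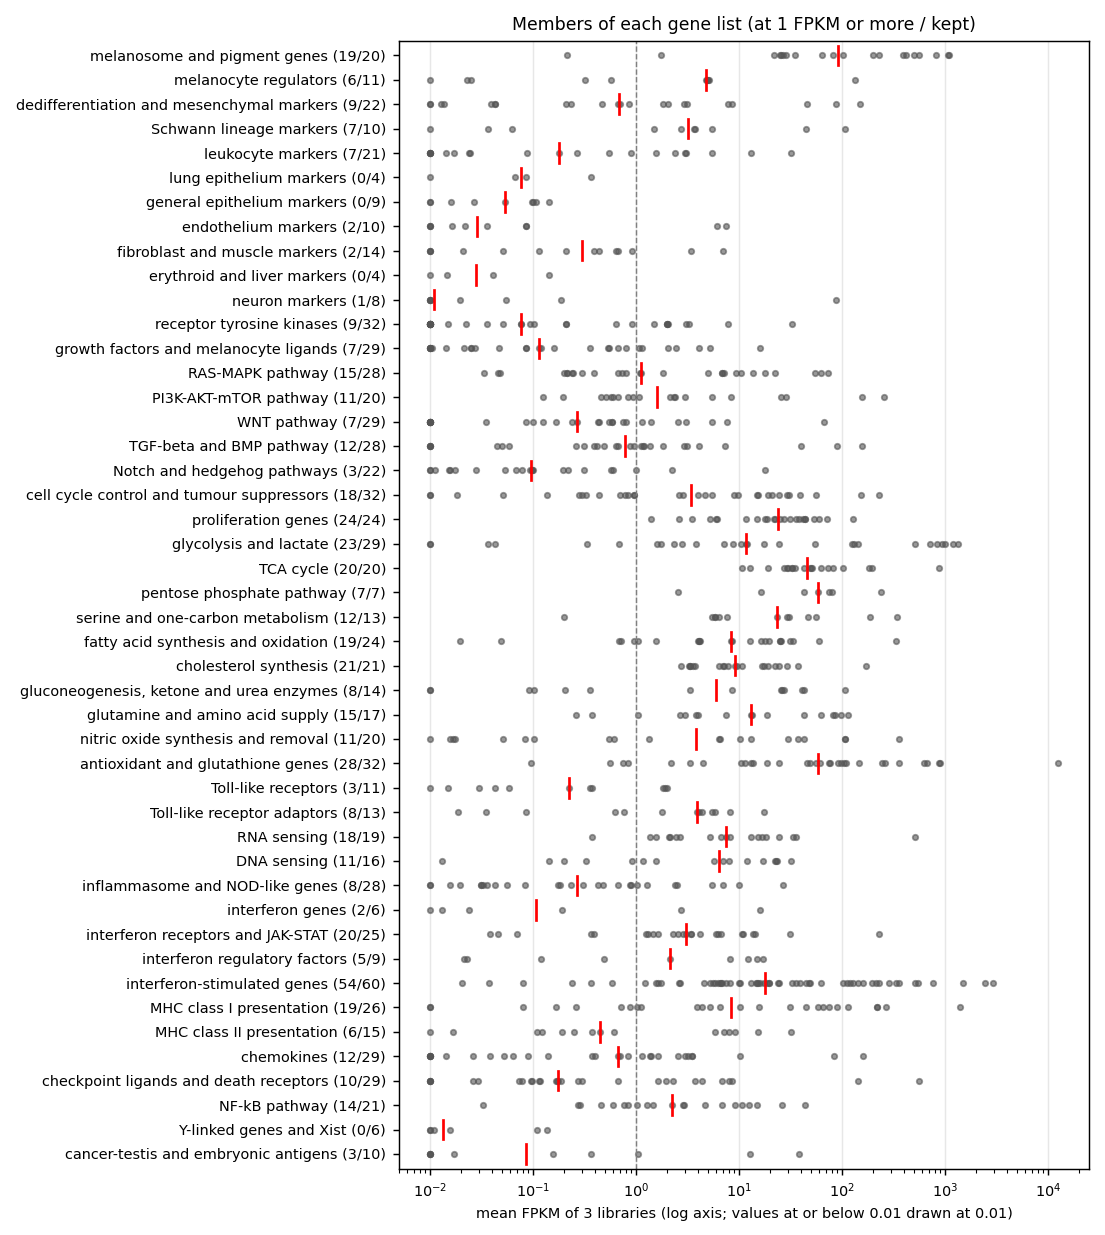
Mean FPKM (log axis) of every member of the 46 gene lists (points) with the list median (red line) and 1 FPKM dashed, and in brackets the members at 1 FPKM or more of those kept. Pigment, TCA cycle, pentose phosphate and antioxidant lists have medians above 45 FPKM, while markers of other cell types mostly lie below 1.

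Most Toll-like receptors were low at rest, while RNA sensing genes and interferon-stimulated genes were widely expressed. Of 11 Toll-like receptors 3 were expressed, Tlr3, which senses double-stranded RNA, at 1.99, 1.77 and 2.30 FPKM, Tlr2 at 1.9 ± 0.196 and Tlr4 at 1.81 ± 0.309. Their adaptor Myd88 was at 17.6 ± 2.91 FPKM and Ticam1, the adaptor of Tlr3, at 8.21 ± 0.941. Cytosolic RNA sensing had 18 of 19 genes expressed, with Ddx58 (RIG-I) at 8.27 ± 1.18 FPKM, its adaptor Mavs at 7.43 ± 0.823 and Ifih1 (MDA5) at 2.70. Among 16 DNA sensing genes 11 were expressed, with Sting1 at 17.3 ± 3.06 FPKM and the enzyme that makes its ligand, Cgas, at 0.326. Inflammasome genes had 8 of 28 expressed, among them the adaptor Pycard at 7.06 ± 1.03 FPKM, while Nlrp3 was at 0.673 and Casp1 at 0.184.

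Interferon transcripts were present without added interferon. Ifnb1 was at 17.9, 16.3 and 13.4 FPKM (1019, 936 and 789 counts) and Ifna4 at 4.35, 2.19 and 1.73. Of 6 interferon genes with a row these 2 were expressed, and Ifng had 4, 0 and 0 counts. The type I receptor chains were modest, Ifnar1 at 2.97, 2.50 and 3.13 FPKM and Ifnar2 at 6.21, 5.84 and 5.85. Among the kinases Tyk2 was at 6.20 ± 0.860 FPKM and Jak1 at 3.04.

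Interferon regulatory factors had 5 of 9 expressed. Irf3, which is present before infection, was at 17.2 ± 0.271 FPKM, Irf9 at 15.0 ± 1.56, Irf7 at 11.6, 12.8 and 12.5 and Irf1 at 8.28 ± 0.755. Irf8 and Irf4, of lymphoid and myeloid cells, were at 0.119 and 0.0227 FPKM.

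Of 60 interferon-stimulated genes 54 were expressed, 37 at 10 FPKM or more and 18 at 100 or more, together 2.47 ± 0.0502% of the summed FPKM. Isg15 was at 3290, 2948 and 2503 FPKM, Ifitm3 at 2332, 2672 and 2411 and Bst2, which tethers budding virions, at 1533, 1510 and 1471. Oas1a, a sensor that activates RNase L, was at 516, 509 and 518 FPKM. Usp18, which removes ISG15 and restrains the receptor, was at 229 ± 22.9 FPKM. Classic members were not uniformly high, with Ifit1 at 112 FPKM, Rsad2 at 45.3 and Mx1 at 15.9, while Ifi44l was at 0.0203. Among the genes with promoter entries, GAAANNGAAA stood in 16 of 26 (61.5%) of the members at 10 FPKM or more and in 6 of 21 (28.6%) of those below.

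Class I presentation had 19 of 26 genes expressed, with B2m, the shared light chain, at 1562, 1378 and 1288 FPKM, H2-D1 at 242, 265 and 293 and H2-K1 at 77.0, 71.6 and 76.1. The peptide transporter Tap1 was at 10.2 FPKM and Tap2 at 5.27. The immunoproteasome subunit Psmb10 was at 66.1 ± 5.12 FPKM, far above Psmb9 (4.39) and Psmb8 (1.11). Class II presentation had 6 of 15 expressed, and its activator Ciita was at 0.0168 FPKM while the invariant chain Cd74 was at 9.17 ± 0.891. The heavy chains share sequence, so the split between them is uncertain.

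Of 29 chemokines kept 12 were expressed. Cxcl10, which attracts T cells, was at 140, 159 and 181 FPKM and Ccl5 at 78.8, 86.7 and 85.9, followed by the neutrophil attractant Cxcl1 at 10.2 ± 1.14. Cd274, which encodes PD-L1, was at 2.25, 2.37 and 2.22 FPKM, and Pdcd1lg2 was listed at 0. Lgals3 (563 ± 12.6) and Lgals9 (144 ± 16.2), ligands of T cell checkpoint receptors, led that list, in which 10 of 29 were expressed. NF-kB genes had 14 of 21 expressed, led by the inhibitor Nfkbib at 43.4 ± 5.43 FPKM.

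**Figure D5:**
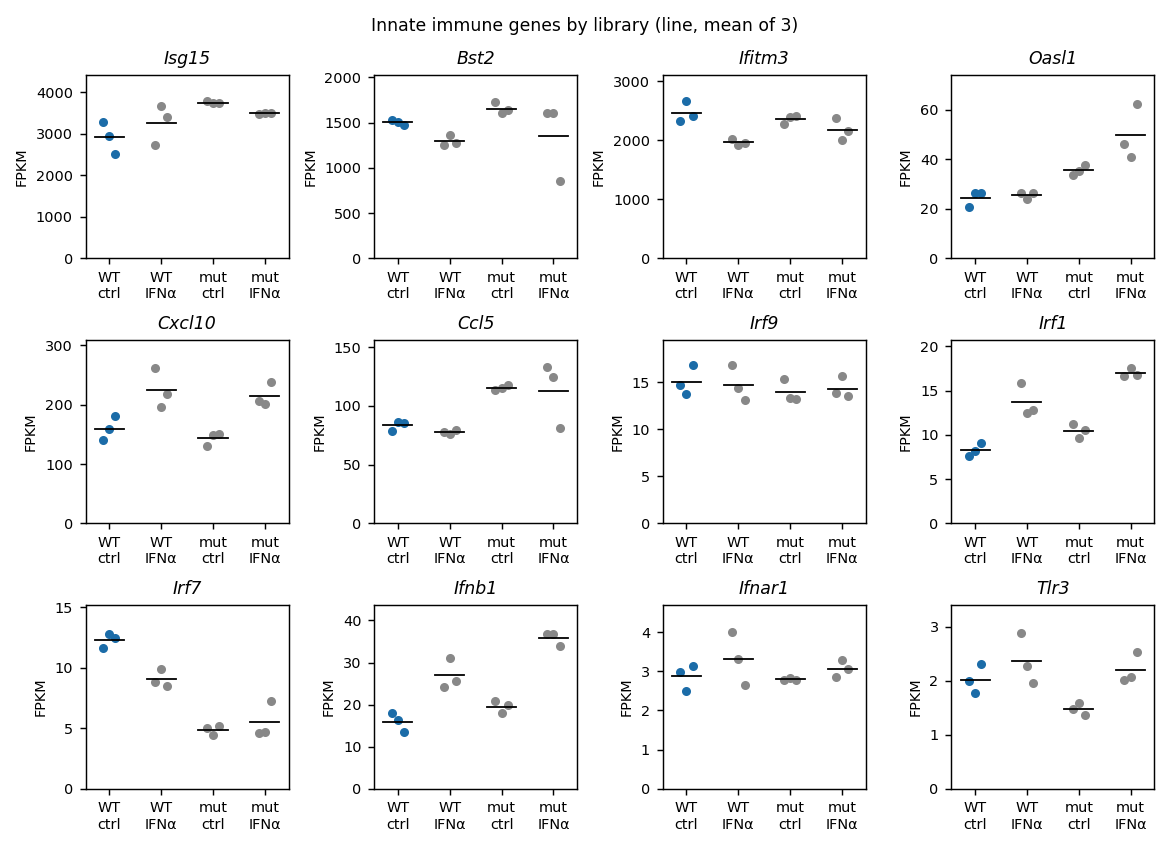
FPKM of 12 innate immune genes in every library of the 4 groups, with the group mean as a line and wild-type control in blue. Isg15, Bst2 and Ifitm3 lie above 850 FPKM in all 12 libraries, and Irf7 is lower in both mutant groups than in wild-type control.

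The other groups place these levels. Isg15 averaged 2914 ± 395 FPKM at rest, 3261 ± 493 with IFNα and 3749 ± 28.8 in the mutant control, and its wild-type libraries overlapped. Ifitm3 was at 2472 ± 178 FPKM at rest and 1964 ± 53.8 with IFNα. Neither gene passed the edgeR quasi-likelihood test in either comparison. Both comparisons share the wild-type controls, so their results are not independent.

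IFNα against control in wild-type cells called 4 of 17590 genes tested (0.0227%), 1 higher and 3 lower, with Benjamini-Hochberg adjustment. Of 806 members of any list tested 3 were called, and the other gene was Col9a3, named after its value was seen. Irf1, an activator of interferon-stimulated genes, rose from 8.28 ± 0.755 to 13.7 ± 1.92 FPKM (log2 fold change 0.71 ± 0.0984 SE, edgeR adjusted p = 0.0202). Id1, an inhibitor of helix-loop-helix factors, fell from 40.1 ± 3.00 to 17.9 ± 1.5 FPKM (-1.17 ± 0.124, edgeR adjusted p = 0.00316). Its relative Id3 fell from 155 ± 22.4 to 77.2 ± 3.41 FPKM (-1.01 ± 0.121, edgeR adjusted p = 0.00643).

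None of the 59 interferon-stimulated genes tested was called by edgeR for IFNα, near the 0.0227% called over all genes tested. DESeq2 called 0 of them and 66 genes in all. Irf1 was not among the 59 but in the list of interferon regulatory factors. An unadjusted p under 0.05 was found for 12 of these 59 and for 957 of all 17590 genes tested. The median log2 fold change of the 59 was 0.07, beside 0.02 over all genes. Irf1 was lost on leaving out any 1 of the 6 libraries (edgeR adjusted p 0.0705 to 0.204). Without wild-type IFNα 3 the edgeR adjusted p was 0.0621 for Id1 and 0.0810 for Id3, and without wild-type control 2 it was 0.0670 for Id3. The summed lung markers were 53.6 to 67.2 FPKM with IFNα against 0.375 to 44.8 at rest, and their part in these calls was not tested.

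IRF7 C435A against wild type without IFNα called 29 genes (0.165%), 15 higher and 14 lower, of which 6 were list members. Irf7 itself fell from 12.3 ± 0.611 to 4.87 ± 0.392 FPKM in the mutant (log2 fold change -1.23 ± 0.169, edgeR adjusted p = 0.0057). Pycard, the inflammasome adaptor, fell from 7.06 ± 1.03 to 0.418 ± 0.0352 FPKM (-3.98 ± 0.298, edgeR adjusted p = 1.94e-05). The myelin gene Mbp fell from 45.0 ± 7.41 to 11.5 ± 0.346 FPKM (-1.87 ± 0.124, edgeR adjusted p = 7.87e-06).

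Nqo1 rose from 0.748 ± 0.310 to 6.82 ± 0.992 FPKM (3.27 ± 0.340, edgeR adjusted p = 0.00043), and the fatty acid binding protein Fabp3 from 12.9 ± 2.05 to 42.3 ± 6.83 (1.81 ± 0.153, edgeR adjusted p = 5.19e-05). The nuclease Isg20 rose from 19.4 ± 1.60 to 27.4 ± 1.75 FPKM (0.59 ± 0.107, edgeR adjusted p = 0.044). Isg20 was the 1 edgeR call among 59 interferon-stimulated genes tested, of which DESeq2 called 6. Over all genes edgeR called 29 and DESeq2 232. Of the 100 most abundant genes at rest 1 was called, the actin-binding Tmsb10, which rose from 1117 ± 71.0 to 1982 ± 48.5 FPKM (0.92 ± 0.154, edgeR adjusted p = 0.026). It is named here after its value was seen.

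Tmsb10 was lost on leaving out any 1 of the 6 libraries (edgeR adjusted p 0.0687 to 0.141), and Isg20 on leaving out any but wild-type control 1 (0.136 to 0.257 where lost). Irf7 was lost without mutant control 2 (edgeR adjusted p = 0.0582). The summed lung markers were 51.1 to 62.8 FPKM in the mutant controls against 0.375 to 44.8 in the wild-type controls, and the 7 leukocyte markers 81.5 to 89.5 against 53.0 to 74.6. The part of these transcripts in the comparison was not tested.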

How the data were processed

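Poly(A)-selected RNA was made into dUTP-stranded libraries with molecular identifiers in the adapters and read as pairs, per the labels' protocols. Tools listed in the submitters' processing notes, without roles, are HISAT2 2.0.4, StringTie 1.3.4d, cutadapt 1.9, edgeR, DESeq2 and UMI-tools, beside the build GRCm38, so whether identifiers or strand were used in counting, and which annotation applied, is not given in the sources used here. Whether genes that overlap on opposite strands were told apart is therefore not known. Per the file headers, the authors' table holds counts per gene beside deposited FPKM, which adjust for library size and transcript length. The counts are whole numbers, and the headers do not say whether they were scaled. No column of per-sample values lacked a sample. Gene starts differ from GRCm38, so no deposited coordinates are printed, and transcript lengths and gene classes come from GENCODE by gene identifier (95.1% of genes matched). Promoter sequences are RefSeq's.

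FPKM were averaged over the 3 wild-type control libraries and ranked as deposited, with no pseudocount or test. Groups and replicate numbers come from the sample titles. The 2 comparisons used edgeR 4.0.16 (R 4.3.3) on the counts, with TMM scaling and the default low-count filter. A quasi-likelihood fit was made over all 12 libraries without covariates. Its code was checked on simulated counts with the same relative spread for every gene and no lung transcripts confined to some libraries. That check does not show how the fit behaves on these data. Two-sided p-values were adjusted by Benjamini-Hochberg and called under 0.05. DESeq2 1.42.0 was an alternative. The text names the 25 most abundant genes, up to 4 of each list or more where a family member differs, a fixed set of genes, and list members past the threshold. Some genes of that set are not reported here. The members and the 46 lists were chosen with earlier results of these data known. Alternatives were the TPM scale, minimums of 0.5 and 2 FPKM, at least 1 FPKM in every library, other rules for setting genes aside, DESeq2 size factors, no filter, a replicate block and each library left out.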

Additional observations from a re-analysis of the deposited data

How the results depend on the processing

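The number of expressed genes stayed within 1.5 times the 9603 reported, from 7744 at a minimum of 2 FPKM to 11617 on the TPM scale. Summed FPKM was 450721 to 490402 per library, so a minimum of 1 on the TPM scale is a lower cut than 1 FPKM. It is close to the minimum of 0.5 FPKM, which gave 11476 genes. The share of the top 100 genes was 30.9% of the deposited counts, which are not divided by transcript length, against 40.7% of FPKM, and 40.0% to 42.1% with a library left out. The genes set aside numbered 31 at a minimum of 100 counts, 119 at 20-fold and 200 at 5-fold. Of the 46 lists, 7 changed their count of expressed members by over 1.5 times in any alternative, namely 5 on the TPM scale, 5 at 0.5 FPKM and 2 at 2 FPKM, and 0 on leaving out a library. For example, the PI3K-AKT-mTOR list had 17 members at 0.5 FPKM, and 1 Toll-like receptor was left at 2 FPKM. With 1 library left out, 10 of the 220 genes the naming rule takes moved by over 1.5 times, 7 of them without replicate 1. None of the 10 was at 1 FPKM or more, and of those in the text Pecam1 went from 0.0862 to 0.0217 FPKM and Nos2 from 0.0176 to 0.0117 without replicate 1.

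For IFNα in wild-type cells, edgeR called 4 genes, DESeq2 66 and edgeR with a replicate block 2. With a library left out the count ran from 0 to 3, being 2 without wild-type control 1, 1 without control 2, 2 without control 3, 2 without IFNα 1 and 0 without IFNα 3, where edgeR gave 784 genes an unadjusted p under 0.05. For IRF7 C435A, edgeR called 29 genes, DESeq2 232 and edgeR with a replicate block 17. With a library left out the count ran from 11 to 28, being 14 without wild-type control 2, 17 without control 3, 14 without mutant control 1, 14 without mutant control 2 and 11 without mutant control 3. Fewer samples enter those fits, and for DESeq2 and the block the cause was not tested. With the replicate block, Irf1 (edgeR adjusted p = 0.0966), Isg20 (0.0722) and Tmsb10 (0.0522) were not called. Same-numbered libraries did not deviate together, with correlations of -0.0629 to 0.0236 for IFNα and -0.0537 to 0.0155 for the mutant, so the numbers were not taken as pairs. With no filter, Isg20 and Tmsb10 were not called. If 1 fragment adds more than 1 to a count, values near 0 have a wider error than their size implies, and 3 libraries limit the precision of every mean.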
